A study of Mus musculus with 4 samples.

Results

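Ctcfl, its paralog Ctcf and 8 genes of the cohesin complex and its regulators were followed in mouse NIH3T3 fibroblasts with and without induced Ctcfl. These 10 genes were taken by name from 19938 named genes measured on 4 Affymetrix arrays, and all 10 had a probe set. NIH3T3 is an established line of mouse fibroblasts. The cells came from a single stable clone that carried the vectors pBI-EGFP-FLAG-mCtcfl and pTA-N, in a Tet-Off system in which doxycycline represses the FLAG-tagged mouse Ctcfl. The controls (2 samples) stayed in medium with 2 µg/ml doxycycline. The Ctcfl group (2 samples) had spent 48 h in medium from which the drug was missing. Both groups carried the same integrated vectors, so the drug and the repression of the transgene cannot be told apart. The vector name also includes EGFP, and whether EGFP had a part was not tested. No label states that the replicates were grown as separate cultures. Each p-value therefore reflects the spread of these arrays alone, which can be technical.

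CTCF is a DNA-binding protein with a run of zinc fingers that is found in nearly all cell types and marks boundaries between chromatin domains. Cohesin is a ring of SMC1A, SMC3 and RAD21, joined by STAG1 or STAG2, that holds sister chromatids together and extrudes chromatin loops until it meets bound CTCF. NIPBL loads the ring, WAPL releases it, and ESCO1 acetylates SMC3 and so protects the ring from release. CTCFL, also called BORIS, has zinc fingers closely similar to those of CTCF but different ends, and is normally restricted to germ cells of the testis. The comparison asked whether expression of Ctcfl in fibroblasts goes with a change in the messenger RNA of the factor it resembles or of the ring that works with that factor.

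CTCF is named after the word CCCTC in DNA, and the sequences just upstream of Ctcf and of the ring gene Smc3 are shown here because these were the members with the lowest log2 changes among those in RefSeq's promoter table. The sequences are from RefSeq, build GRCm38.p6, plus strand, written 5′ to 3′ and ending at the base before the annotated gene. Capitals mark CCCTC and its reverse complement GAGGG.
Ctcf, chr8:105636288-105636473: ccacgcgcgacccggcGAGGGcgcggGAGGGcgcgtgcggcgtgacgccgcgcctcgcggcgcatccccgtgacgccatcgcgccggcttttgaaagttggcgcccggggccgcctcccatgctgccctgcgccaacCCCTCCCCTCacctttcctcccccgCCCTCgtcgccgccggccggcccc
Smc3, chr19:53600146-53600395: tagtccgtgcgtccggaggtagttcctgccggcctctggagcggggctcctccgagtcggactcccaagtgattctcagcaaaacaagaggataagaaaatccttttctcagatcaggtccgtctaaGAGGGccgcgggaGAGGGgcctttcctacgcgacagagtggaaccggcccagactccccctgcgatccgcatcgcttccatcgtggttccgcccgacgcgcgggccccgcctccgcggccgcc
The 186 bases before Ctcf held CCCTC 3 times and GAGGG 2 times. Of 32851 promoters in that table, 48.8% held the word on either strand in their first 186 bases, the part shown for Ctcf. The 250 bases before Smc3 held GAGGG 2 times and CCCTC 0 times. In their first 250 bases, 60.5% of promoters held the word on either strand. Of the 10 members 5 matched the table (Ctcf, Smc1a, Smc3, Stag1 and Wapl), and 4 of these held the word on either strand in the full 300 bases around the start, as did 66.0% of all promoters. These are matches of letters in a window and were not compared with binding.

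Ctcfl had log2 values of 7.77 and 7.71 on the control arrays and of 10.37 and 10.35 on the Ctcfl arrays. Both Ctcfl arrays lay far above both controls, and the replicates of each group lay close together. The control mean was 7.74 ± 0.04 and the Ctcfl mean 10.36 ± 0.01 (SD, n = 2). Ctcfl thus rose 6.15-fold (95% interval 5.34 to 7.08, adjusted p = 5.38e-04 by limma over all genes). Among all genes only Adgrg1 and Gstm5 rose by more. On each control array 74.7% to 75.1% of genes had a lower value than Ctcfl, and on each Ctcfl array 97.3% to 97.4%. Where the probe set lies in the gene, and whether it detects the transgene, the endogenous gene or both, is not given in the sources used here. In a bulk sample, a lower share of cells with induced Ctcfl and less Ctcfl RNA per cell cannot be told apart. The call of Ctcfl was lost when any 1 array was left out, as was the call of every other gene. Such fits leave 1 array in a group and fewer degrees of freedom, so they cannot tell whether the call hangs on a given array. The log2 change of Ctcfl stayed between 2.59 and 2.65 in those fits. In a fit over all probe sets, its adjusted p was 0.0660.

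**Figure D1:**
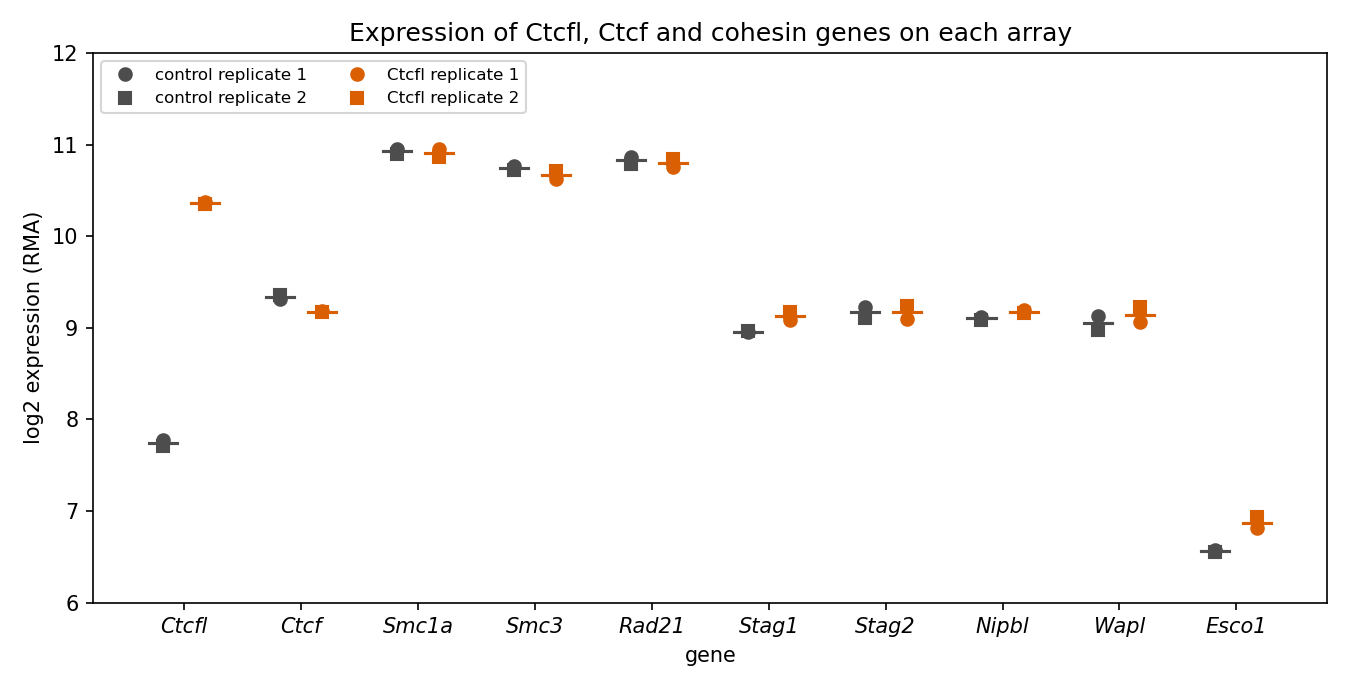
Log2 RMA expression (vertical axis) of the 10 genes (horizontal axis) on each of the 4 arrays; circles and squares are replicates 1 and 2, grey is control, orange is Ctcfl, and horizontal lines are group means. Ctcfl went from a mean of 7.74 to 10.36, while the group means of the other 9 genes differed by at most 0.31; levels of different genes rest on different probes and are not to be ranked.

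The other 9 members did not pass the test (limma, Benjamini-Hochberg adjustment over all genes). The 1 of 10 members called as higher, against 0.0301% of all genes, was Ctcfl, which the design induces. Counts that include Ctcfl are thus not a result about the other members. At an unadjusted p under 0.05, 2 of 10 members, Ctcfl and Esco1, were higher. Without Ctcfl this was 1 of 9, against 5.36% of all genes. At that level 0 members were lower, against 5.32%. Of the 9 members without Ctcfl, 3 had non-overlapping groups with higher and 2 with lower values in the Ctcfl arrays, against 20.6% of all genes in each direction. Their median log2 change was 0.00, equal to the median of all genes. The 9 changes ran from 0.895-fold to 1.24-fold. Their 95% intervals, each taken for 1 gene alone, together spanned 0.779-fold to 1.44-fold.

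Ctcf had log2 values of 9.31 and 9.36 on the control arrays and of 9.18 and 9.17 on the Ctcfl arrays. Both Ctcfl arrays were lower than both controls. The log2 change was -0.16 (SE 0.08, 95% interval -0.36 to 0.04, unadjusted p = 0.1, adjusted p = 0.537 by limma), which is 1.12-fold lower and did not pass. By size, 71.8% of all genes had a smaller change. The change was between -0.19 and -0.14 when any 1 array was left out. Under the alternatives that kept all 4 arrays, its adjusted p was at least 0.239. Its unadjusted p there was 0.0201 by limma with intensity trend and robust variances and 0.0245 by ordinary t statistics. In the others it was 0.0669 or more by limma.

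The 3 proteins that close the ring come from Smc1a, Smc3 and Rad21. Smc1a, an ATPase arm of the ring, had log2 values of 10.95 and 10.90 in controls and of 10.95 and 10.86 in Ctcfl arrays. Smc3, the other arm, had 10.77 and 10.72 in controls and 10.62 and 10.71 in Ctcfl arrays. Rad21, the kleisin that bridges the arms and is cut by separase, had 10.87 and 10.79 in controls and 10.75 and 10.84 in Ctcfl arrays. The groups overlapped for Smc1a and Rad21, and for Smc3 both Ctcfl values lay below both controls, the nearest values being 10.71 and 10.72. The log2 changes were -0.02 for Smc1a (95% interval -0.23 to 0.19), -0.08 for Smc3 (-0.29 to 0.13) and -0.035 for Rad21 (-0.25 to 0.18), with limma adjusted p-values of 0.950, 0.776 and 0.911. The probe sets of all 3 genes were bright, above at least 98.1% of genes on every array.

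Stag1 and Stag2 encode alternative subunits, of which a ring holds either. Stag1 had log2 values of 8.95 and 8.96 in controls and of 9.08 and 9.17 in Ctcfl arrays, which did not overlap. Stag2 had 9.23 and 9.11 in controls and 9.10 and 9.24 in Ctcfl arrays, with equal group means of 9.17. The change of Stag1 was 0.17 (SE 0.09, 95% interval -0.04 to 0.38, adjusted p = 0.529 by limma), and that of Stag2 was 0.00 (SE 0.10, 95% interval -0.24 to 0.24, adjusted p = 1.0). Stag1 did not pass, its interval overlapped that of Stag2, and the difference between both changes was not tested.

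Among the regulators, the loader gene Nipbl had log2 values of 9.12 and 9.09 in controls and of 9.19 and 9.16 in Ctcfl arrays. The groups did not overlap, and the change was 0.07 (SE 0.08, 95% interval -0.13 to 0.27, adjusted p = 0.797 by limma). Wapl, which encodes the releasing factor, had 9.13 and 8.98 in controls and 9.06 and 9.23 in Ctcfl arrays. Its groups overlapped, and the change was 0.09 (SE 0.10, 95% interval -0.16 to 0.34, adjusted p = 0.792).

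Esco1, the acetyltransferase gene, had the second largest change of the members. Its brighter probe set had log2 values of 6.57 and 6.55 in controls and of 6.81 and 6.93 in Ctcfl arrays. Both Ctcfl values lay above both controls. The change was 0.31, or 1.24-fold (SE 0.09, 95% interval 0.095 to 0.525, unadjusted p = 0.0122, adjusted p = 0.359 by limma), and it did not pass. By size, 94.7% of all genes had a smaller change, and 488 genes had a larger rise. Esco1 was the member with more than 1 probe set. The other had 6.66 and 6.32 in controls and 6.91 and 6.79 in Ctcfl arrays, again without overlap. Put in place of the brighter one, it gave a change of 0.36 (SE 0.13, unadjusted p = 0.0321, adjusted p = 0.436). The platform annotation gives both probe sets the symbol Esco1, so they are not counted as independent. Whether both detect Esco1 RNA was not tested.

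**Figure D2:**
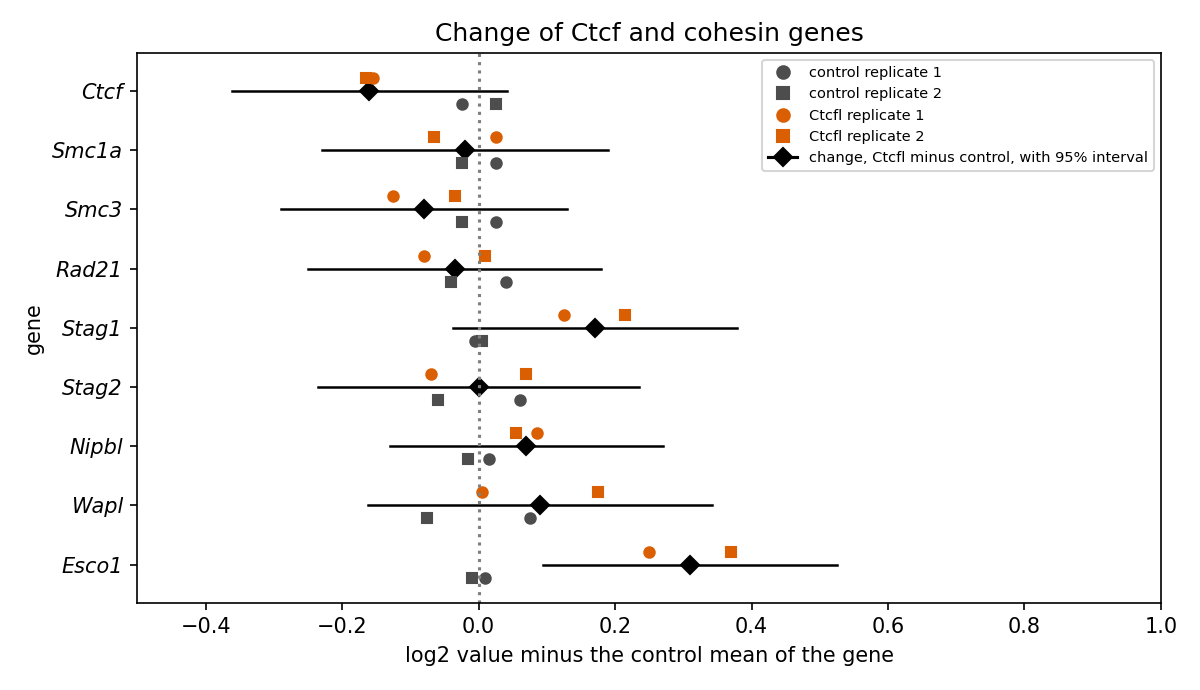
For the 9 genes other than Ctcfl (vertical axis), each array's log2 value minus the control mean of the gene (horizontal axis); grey points below each line are controls, orange points above it are Ctcfl arrays, and black diamonds with lines are the limma change with its 95% interval. The interval of Esco1 (0.095 to 0.525) lay above 0 and those of the other 8 genes spanned 0.

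Other genes of the same machinery, in lists given in full under the methods, did not pass either. Of the 48 measured genes of these lists, limma called 0 after adjustment over all genes. At an unadjusted p under 0.05, 2 were higher (4.17%, against 5.36% of all genes) and 0 were lower (against 5.32%). With each alternative setting the adjusted count was 0 as well.

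Among 11 other mitotic cohesin regulators the median log2 change was 0.035. At an unadjusted p under 0.05 by limma there were 0, against 10.7% of all genes in either direction. Without overlap, 3 were higher and 0 were lower, against 20.6% of all genes in each direction. Espl1, the separase that cuts RAD21 at anaphase, had 0.20 (SE 0.09, adjusted p = 0.506 by limma). Pds5b, which binds the ring together with WAPL, had 0.165 (SE 0.09, adjusted p = 0.562). The control values of Espl1 were 8.27 and 8.27, and its Ctcfl values were 8.39 and 8.55.

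The 4 meiotic cohesin genes replace ring subunits in germ cells, where Ctcfl is normally active. Rad21l, a meiotic kleisin, had log2 values of 3.09 and 3.03 in controls and of 3.19 and 3.17 in Ctcfl arrays. Smc1b, the meiotic counterpart of Smc1a, had 3.32 and 3.60 in controls and 3.55 and 3.68 in Ctcfl arrays. Rad21l was higher in both Ctcfl arrays and Smc1b overlapped, and neither passed (log2 changes 0.12 and 0.155, limma adjusted p = 0.638 and 0.675). Stag3 and Rec8 had changes of 0.09 and -0.07. All 4 lay below the median gene level of 5.52, at 3.12 to 4.70 in the mean over arrays. Without detection calls, values as low as these cannot be told from background.

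Condensin and the SMC5/6 complex are built like cohesin but compact chromosomes or act in DNA repair. The list of their genes, which also holds Smchd1 from outside both complexes, had 15 measured genes and a median change of 0.01. Nsmce3, a subunit of SMC5/6, had log2 values of 7.47 and 7.33 in controls and of 7.62 and 7.82 in Ctcfl arrays (change 0.32, SE 0.11, adjusted p = 0.412 by limma). Ncapg, a condensin subunit, had 9.86 and 9.76 in controls and 9.97 and 10.16 in Ctcfl arrays (change 0.255, SE 0.10, adjusted p = 0.458). These were the 2 genes of the machinery lists that were higher at an unadjusted p under 0.05, and neither passed after adjustment.

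Among proteins known to bind or work beside CTCF, 13 of 15 genes were measured, with a median change of -0.01. At an unadjusted p under 0.05 by limma there were 0, against 10.7% of all genes in either direction. Without overlap, 1 was higher and 2 were lower, against 20.6% of all genes in each direction. Bptf, a chromatin remodelling subunit, had 0.27 (SE 0.14, adjusted p = 0.541 by limma) with overlapping groups, and Ldb1, a looping cofactor, had -0.135 (SE 0.09, adjusted p = 0.611). The 5 genes of proteins reported as CTCFL partners had changes from -0.115 for Prmt7, an arginine methyltransferase, to 0.05 for Setd1a, a histone H3 lysine methyltransferase. Their groups overlapped for all 5, while 20.6% of all genes had non-overlapping groups in each direction.

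**Figure D3:**
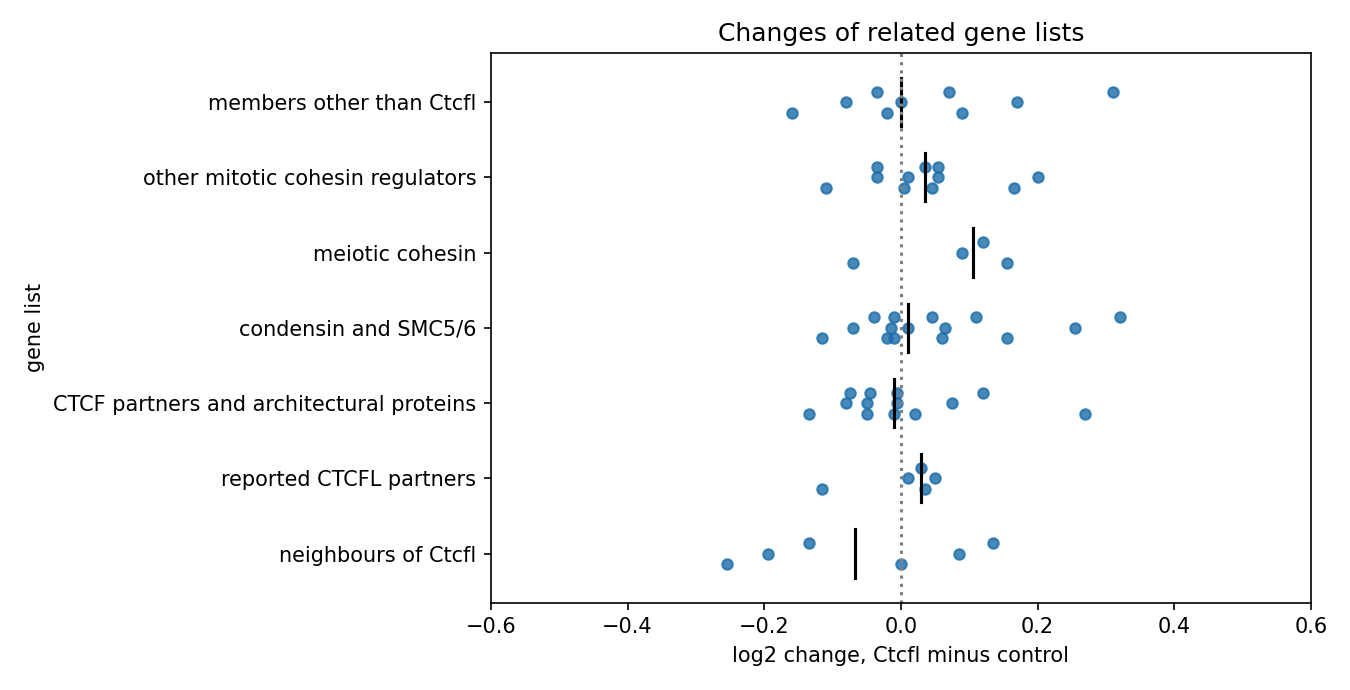
Log2 change between Ctcfl and control arrays (horizontal axis) for each gene of the 9 members other than Ctcfl and of the related lists (vertical axis); each point is a gene and black bars are list medians. The medians ran from -0.07 for the neighbours of Ctcfl to 0.105 for meiotic cohesin, and no point passed after adjustment over all genes.

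The 3 nearest measured genes on each side of the endogenous Ctcfl, in the order of RefSeq's GRCm38.p6 annotation, were Spo11, Rae1 and Rbm38 on one side and Pck1, Zbp1 and Pmepa1 on the other. None of the 6 passed limma after adjustment. At an unadjusted p under 0.05, 1 of the 6, Pmepa1, was lower, against 5.32% of all genes. Rbm38, the nearest on its side, had log2 values of 6.82 and 6.90 in controls and of 6.88 and 6.84 in Ctcfl arrays, a change of 0.00. Pck1, the nearest on the other side, encodes a gluconeogenic enzyme and had 0.135 (SE 0.11, adjusted p = 0.698 by limma). Spo11, which makes meiotic DNA breaks, had 0.085, Rae1, an RNA export factor, had -0.135, and Zbp1, a sensor of Z-form nucleic acids, had -0.195. Pmepa1, a transmembrane inhibitor of TGF-beta signalling, had -0.255 (SE 0.10, unadjusted p = 0.0419, adjusted p = 0.450). The Ctcfl values of 3 of the 6, Rae1, Zbp1 and Pmepa1, lay below both controls, against 20.6% of all genes.

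**Figure D4:**
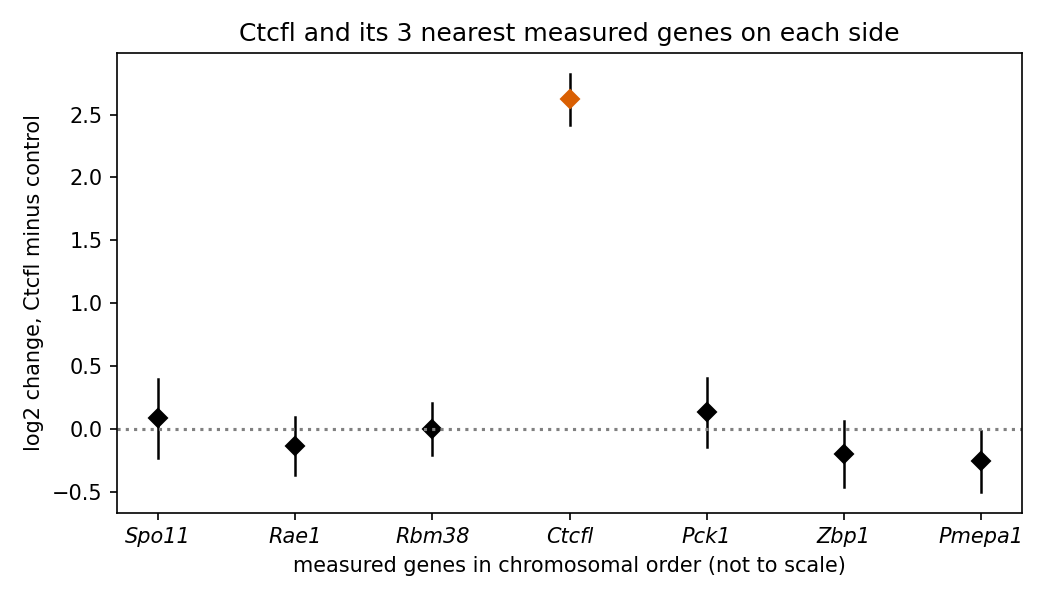
Log2 change between Ctcfl and control arrays (vertical axis) with its limma 95% interval for Ctcfl (orange) and the 3 nearest measured genes on each side (black), in chromosomal order and not to scale. Ctcfl stood at 2.62, and the 6 neighbours lay between -0.255 and 0.135.

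The genes whose 4 values were most like those of Ctcfl were found by the Euclidean distance over the 4 arrays between log2 values centred on each gene's control mean. Since Ctcfl rose, this picks genes that rose by a like amount, and the values are given as a description. Gstm5 was nearest, at a distance of 0.27, with log2 values of 7.86 and 7.96 in controls and of 10.59 and 10.76 in Ctcfl arrays. Lpcat2 (0.68), Adgrg1 (1.45), Col5a2 (1.79) and Capns2 (1.87) followed. The log2 change of these 4 was 2.16, 3.625, 1.355 and 1.31. Capns2 lies within Lpcat2 in the RefSeq annotation, so these 2 genes share a locus.

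The cells carried fibroblast markers: 9 of 10 lay above the median gene level, with Vim and Col1a2 at about 12.1, and Fap was low at 3.40. Their mean log2 level was 9.53 on both control arrays and 9.38 and 9.34 on the Ctcfl arrays. Of the 10, 7 were lower without overlap and 1, Col1a1 (0.065), was higher, against 20.6% of all genes in each direction. None passed limma after adjustment. At an unadjusted p under 0.05, 3 were lower, Pdgfrb (-0.56), Col3a1 (-0.38) and Pdgfra (-0.29), against 5.32% of all genes. The mean levels on the 4 arrays were 4.22 to 4.29 for 5 endothelial markers, 4.89 to 4.97 for 4 leukocyte markers, 3.86 to 3.97 for 5 germ cell markers and 4.92 to 5.12 for 5 epithelial markers. Of the epithelial markers, Krt8 had a change of 0.575 (adjusted p = 0.312 by limma), with control values of 6.06 and 5.66. The changes of the others were 0.075 for Krt18, 0.035 for Cdh1, -0.005 for Cldn4 and -0.04 for Epcam. What part these shifts had in the members' values was not tested.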

How the data were processed

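RNA of 4 samples was hybridised to Affymetrix arrays. Per the labels, the authors computed the deposited log2 values by RMA in Expression Console, whose version and settings are not given in the sources used here. RMA corrects background, quantile-normalises arrays and summarises probe sets on the log2 scale. No detection calls were used. Of 35511 probe sets with a value, 21789 had 1 gene symbol in the platform annotation, 1621 had several and 12101 none, and the probe set with the highest mean represented each gene. Symbols were checked by gene identifier against RefSeq (GRCm38.p6), where 21698 matched.

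The contrast was fitted in R 4.3.3 by limma 3.58.1 (lmFit, eBayes; 2 arrays per group, two-sided), adjusted over 19938 genes, threshold 0.05. The test was tried on simulated data. Alternatives were median centring, quantile normalisation, mean of probe sets, a filter that removed the dimmest 33.3% of genes, intensity trend with robust variances (statmod 1.5.0), ordinary t statistics, a replicate block, each array left out and all probe sets in 1 fit.

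The members and lists were chosen with earlier results of these data known. The lists were other mitotic cohesin regulators (Mau2, Pds5a, Pds5b, Esco2, Cdca5, Espl1, Pttg1, Sgo1, Sgo2a, Hdac8, Ddx11), meiotic cohesin (Smc1b, Rec8, Rad21l, Stag3), condensin and SMC5/6 (Smc2, Smc4, Smc5, Smc6, Smchd1, Ncapd2, Ncapd3, Ncapg, Ncapg2, Ncaph, Ncaph2, Nsmce1, Nsmce2, Nsmce3, Nsmce4a), CTCF partners (Yy1, Zfp143, Maz, Patz1, Vezf1, Chd8, Ddx5, Npm1, Top2b, Adnp, Bptf, Ldb1, Parp1, Smarca5, Zbtb33) and CTCFL partners (Prmt7, Bag6, Setd1a, Sp1, Ubtf). Zfp143 and Adnp had no probe set with a single symbol. Named were all members, the 2 genes of each list with the smallest unadjusted p, the neighbours of Ctcfl and the 5 genes most like it, passing over predicted genes and clones. Stag3, Rec8, Setd1a and the cell type markers given with values were named to show the range of their lists. A planned comparison of the CTCFL and CTCF proteins was not run, as their sequences were not used here. Plots used Python 3.11.15 and matplotlib 3.10.9.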

Additional observations from a re-analysis of the deposited data

How the results depend on the processing

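Ctcfl kept its rise under all 12 alternatives, with log2 changes of 2.59 to 2.65, but its call depended on the setting. Its change of 2.62 had a limma adjusted p of 0.0710 with a replicate block and of 0.0660 in a fit over all probe sets, and an adjusted p of 0.424 with ordinary t statistics. The number of members called was then 0 in place of 1 (2, 2 and 3 unadjusted), and on leaving out each array in turn it was 0 (1 to 2 unadjusted). Leaving out an array, the block and the ordinary test leave fewer degrees of freedom for the variance of each gene. Over all genes, 9 were called, against 31 with median centring, 20 without the dimmest 33.3% of genes and 479 under the intensity trend (robust variances). The count was 0 with a replicate block (1468 unadjusted), with ordinary t statistics (1940), in a fit over all probe sets (2764) and on leaving out each array in turn (1329 to 1663); the causes were not tested further. Replicate numbers do not pair the arrays by the labels. Deviations of same-numbered arrays from their group means correlated at -0.102 across genes. With 2 arrays per group, both replicate numbers must give this same value, so it cannot decide the pairing. A crossed replicate block, chosen after seeing the data, called 0 genes (2105 unadjusted). Ctcf, Smc3, Stag1, Nipbl, Wapl and Esco1 kept their sign in 12 of 12 alternatives and Smc1a and Rad21 in 10; Stag2, at 0.00, ran from -0.07 to 0.07. None of these was called under any alternative, and the lowest adjusted p was 0.132, for Esco1 with an intensity trend and robust variances. With 2 arrays per group, the median 95% interval of a member reached 0.21 to either side on the log2 scale.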
